A study of Mus musculus with 6 samples.

Results

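The germline and meiosis genes are 34 mouse genes that are normally used in germ cells, chosen by name and found on the arrays through the RefSeq transcript that each probe is designed against. Of these, 33 had a probe, among 20972 genes with a named probe in all; Rhox2a was not matched to one and was not analysed here. They comprise 9 genes of germ-cell specification and identity, 9 of the piRNA pathway and its neighbourhood, Stra8 as the gene of meiotic entry, 5 of the meiotic chromosome axis, 4 of the Rhox homeobox cluster and 6 used later in sperm formation. Their RNA was measured in 6 stable lines of ZHBTc4, mouse embryonic stem cells whose only source of Oct4, a transgene, is silenced by tetracycline. The lines carried coelacanth POU5F1 (LcPOU5F1, clones 4 and 5), coelacanth POU5F3 (LcPOU5F3, clones 1 and 2) or mouse OCT4 (mOct4, clones 1 and 2), each from an electroporated pCAG-IP plasmid. Every line had been kept in medium with LIF on gelatin under tetracycline at 2 µg/mL, selected with puromycin at 1 µg/mL from day 2 and picked as a colony at day 9, and no line that kept its resident transgene on is among the samples. Each line is therefore 1 clone, and the p-values rest on how far 2 clones of a group lie apart, with no repeat culture of any clone.

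Germ cells are set apart from the body's other lineages by transcription factors such as PRDM1 and by RNA-binding proteins that keep their identity. They guard their genome with small RNAs bound by PIWI proteins, the piRNAs, which silence transposons, and they enter meiosis under STRA8, after which cohesins and synaptonemal complex proteins build an axis along each chromosome. Many of these genes have CpG-rich promoters that are silenced in other tissues by DNA methylation or by the MGA, MAX and E2F6 repressor complexes, and embryonic stem cells in serum and LIF express part of them at low to moderate levels.

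Levels are given as log2 of the array's processed signal relative to that array's 75th percentile, so that 0 is the 75th percentile of all spots of that array. A signal was counted as measured only where the scanner software flagged it well above background. By that flag 25 and 20 of the 33 genes were measured in LcPOU5F1 clones 4 and 5, 21 and 24 in LcPOU5F3 clones 1 and 2, and 31 and 30 in mOct4 clones 1 and 2. The share of all probes well above background ran the same way, at 48.1% and 43.7% for LcPOU5F1, 43.5% and 53.3% for LcPOU5F3, and 57.5% and 57.8% for mOct4, and its part in the counts of measured genes was not tested. Nanos2, a translational regulator of male germ cells, and Asz1, a mitochondrial factor of piRNA production, were measured on no array. Tdrd1, a Tudor-domain partner of PIWI proteins, was measured only in mOct4 clone 1. These 3 genes did not pass the requirement of both arrays of at least 1 group, which left 30 genes in the tests; a gene that passed through the mOct4 lines alone was bound to look lower elsewhere.

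**Figure D1:**
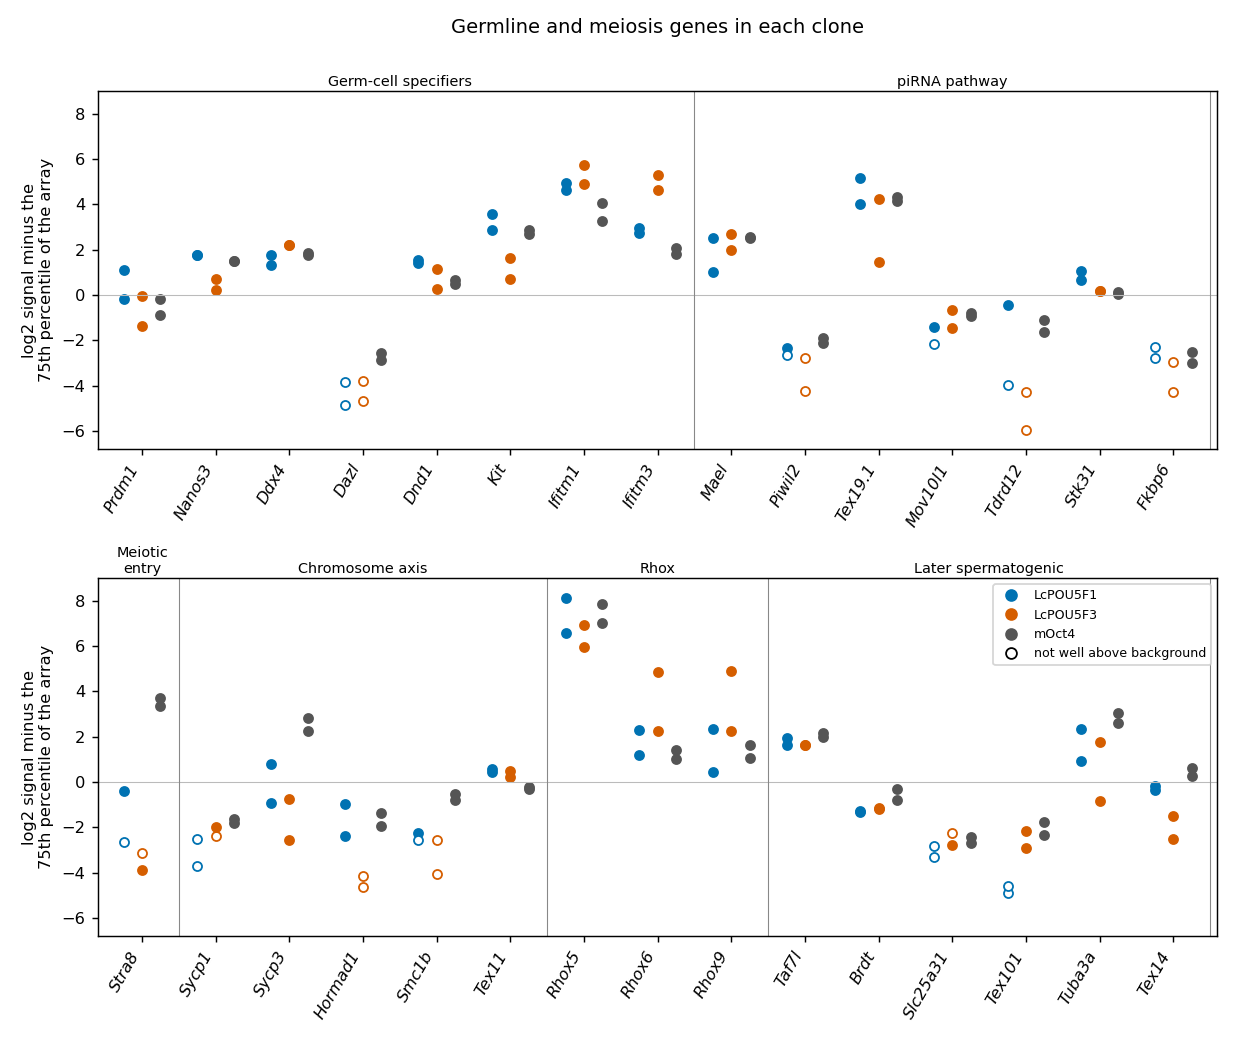
The plot of levels by clone shows log2 signal minus the array's 75th percentile (vertical axis) for the 30 germline and meiosis genes tested, grouped by role, with 1 point per clone, coloured by LcPOU5F1, LcPOU5F3 and mOct4; open points were not well above background. Stra8 lies at 3.33 and 3.72 in the mOct4 lines and at -0.39 or less in the other lines, and Ifitm3 lies highest in the LcPOU5F3 lines.

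With LcPOU5F3 in place of mOct4, 3 of the 30 genes rose and 7 fell in limma's moderated test, at an adjusted p under 0.05 over all 14595 genes tested. Over all genes 11.8% were called higher and 11.7% lower, so the count of higher genes lay near the background. The 7 lower genes were 4 genes of meiosis (Stra8, Sycp3, Smc1b and Hormad1) together with Tex14, Kit and Nanos3. Of these, Stra8 and Smc1b entered the tests through the mOct4 lines alone and were bound to look lower. Among the 19 genes well above background on all 6 arrays, limma called 3 higher and 4 lower, beside 1761 and 1695 of all 11619 such genes. With LcPOU5F1 in place of mOct4, limma called none of the 30 in either direction, against 0.0137% of all genes higher and 0.0206% lower. Without adjustment, 12 of the 30 had a p under 0.05 in that comparison, and 2280 of all genes. Between the coelacanth proteins, LcPOU5F1 over LcPOU5F3, 4 genes were higher (Hormad1, Kit, Nanos3 and Tex14) and 2 lower (Ifitm3 and Tex101), against 10.6% and 9.99% of all genes. The 3 comparisons share arrays, so their values for a gene are not independent of each other. In RNA from whole cultures, fewer cells that express a gene and less RNA per cell cannot be told apart.

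No call with LcPOU5F3 against mOct4 held when either mOct4 clone was left out, and nearly all calls over all genes were lost as well. The median log2 fold change of the 30 genes was -0.82 without mOct4 clone 1, beside -0.10 over all genes. It was -0.53 without mOct4 clone 2, beside -0.07. Without LcPOU5F3 clone 1 the median log2 fold change of the 30 genes was -0.86, beside -0.18 over all genes. Without LcPOU5F3 clone 2 it was -0.31, beside -0.02. With only the 4 arrays compared, without the LcPOU5F1 clones that only lend their spread, limma called 1 higher and 5 lower. That fit called 1285 and 917 of all genes. Of the calls between LcPOU5F1 and LcPOU5F3, Ifitm3 alone held with only the 4 arrays compared, a fit that called 96 higher and 400 lower of all genes. The call of Ifitm3 was lost without either LcPOU5F1 clone. The median of the 30 genes in that comparison was 0.47 without LcPOU5F1 clone 4 and 0.50 without clone 5, beside 0.19 and 0.21 over all genes. It was 0.92 without LcPOU5F3 clone 1 and 0.15 without clone 2, beside 0.26 and 0.10. The array of mOct4 clone 2 was alone on its slide, and the value within the slide that held the other 5 arrays is the value without that clone. Fold changes within that slide are given beside the main genes.

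Stra8, which responds to retinoic acid and is needed for germ cells to start meiosis, had the lowest fold change of the 30 genes against mOct4 with either coelacanth protein. Its level was -0.39 and -2.66 in the LcPOU5F1 lines, where clone 5 was not well above background. In the LcPOU5F3 lines it was -3.12 and -3.88, with clone 1 not well above background, against 3.33 and 3.72 in the mOct4 lines. No coelacanth line overlapped the mOct4 pair. Stra8 fell by 7.03 ± 0.77 on the log2 scale (SE) with LcPOU5F3, a 130-fold difference (limma adjusted p = 0.00833), and by 6.84 within the shared slide, where the adjusted p was 0.0869. With every signal below a common floor of -2.44 raised to it, measured or not, the log2 fold change was -5.96. With normexp background correction it was -5.24, and both were still called. With LcPOU5F1 the log2 fold change was -5.05 ± 0.77, which did not pass in the main fit over all 6 arrays (adjusted p = 0.125). It passed narrowly, at 0.05 after rounding, when only the 4 arrays compared were fitted. Over all 6 arrays it passed with normexp (adjusted p = 0.0432), with a variance weight per group (0.0299) and with median centring, and in no other setting. Stra8 with LcPOU5F1 stood 1.98 ± 0.77 above its value with LcPOU5F3, a difference that did not pass either (adjusted p = 0.123).

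Sycp3, a building block of the chromosome axis and of the lateral elements of the synaptonemal complex, followed. It lay at 0.78 and -0.92 in the LcPOU5F1 lines, at -0.73 and -2.55 in the LcPOU5F3 lines and at 2.82 and 2.27 in the mOct4 lines, well above background on all 6 arrays. The coelacanth groups overlapped each other and neither overlapped mOct4. Sycp3 fell by 4.18 ± 0.81 with LcPOU5F3, 18.2-fold (limma adjusted p = 0.0245, and 0.134 within the shared slide). With LcPOU5F1 its log2 fold change of -2.61 ± 0.81 did not pass (adjusted p = 0.257).

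Smc1b, the meiosis-specific cohesin subunit, was not well above background in either LcPOU5F3 line (-2.56 and -4.07), against -0.53 and -0.78 in the mOct4 lines. Only a bound can therefore be given, at least 5.78-fold lower with LcPOU5F3. The fitted fall, which uses the unmeasured signals, was 6.33-fold (limma adjusted p = 0.0235). Here and below, an adjusted p beside a bound is that of the fitted fold change, and no bound was tested. In the LcPOU5F1 lines Smc1b was -2.25, measured, and -2.56, not measured, and its fitted log2 fold change of -1.76 against mOct4 did not pass (adjusted p = 0.243). Hormad1, a HORMA-domain protein of the unsynapsed axis, was well above background in both LcPOU5F1 lines (-2.39 and -0.99) and both mOct4 lines (-1.37 and -1.95) and in neither LcPOU5F3 line (-4.65 and -4.16). It was at least 2.88-fold lower with LcPOU5F3 than with mOct4 and at least 2.82-fold higher with LcPOU5F1 than with LcPOU5F3. The fitted differences behind these calls were 6.71-fold (limma adjusted p = 0.0228) and 6.58-fold (adjusted p = 0.0267). The log2 fold change of Hormad1 shrank to -0.78 against mOct4 and 0.75 between the coelacanth proteins when signals below a common floor were raised to it. Neither was then called. Its other probe was dim on every array.

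The remaining axis genes went other ways. Sycp1, the transverse filament of the synaptonemal complex, was at -2.50 and -3.69 in the LcPOU5F1 lines, both below the background flag, at -2.36 (below it) and -1.98 in the LcPOU5F3 lines, and at -1.65 and -1.82 in the mOct4 lines. It passed no test. Tex11, an X-linked gene of meiotic recombination, was 0.45 and 0.57 with LcPOU5F1, 0.50 and 0.24 with LcPOU5F3 and -0.24 and -0.32 with mOct4. Tex11 was 1.57-fold higher with LcPOU5F3 than with mOct4 (log2 0.65 ± 0.16, limma adjusted p = 0.0432), in a call that held in 7 of the 13 other fits that kept all arrays of both groups and no block. Its log2 fold change with LcPOU5F1 was 0.79 ± 0.16 (adjusted p = 0.162). Over the 5 axis genes the median log2 fold change was -2.66 with LcPOU5F3, or -1.53 with unmeasured genes at their bound, beside -0.09 over all genes tested. With LcPOU5F1 it was -1.36, or -0.74 with unmeasured genes at their bound, beside 0.10. At a common floor these medians were -0.78 with LcPOU5F3 and -0.71 with LcPOU5F1. The values -2.66 and -1.36 are those of Smc1b and Sycp1 themselves. Both genes entered the tests through the mOct4 lines alone and were bound to look lower. Sycp3 and Tex11, well above background on all 6 arrays, went opposite ways, at -4.18 and 0.65 with LcPOU5F3 and -2.61 and 0.79 with LcPOU5F1. The medians therefore do not describe the 5 genes as a group.

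Promoter sequence is shown for Stra8, Sycp3 and Smc1b, the 3 genes of meiosis with the largest fold or bound among those that fell with LcPOU5F3: 250 bases before to 50 bases after the annotated start, from RefSeq on GRCm38.p6, written 5′ to 3′ on the gene's strand. Capitals mark 3 motifs searched on both strands: CACGTG, the E-box bound by MAX and MGA, GCGGGA, an E2F motif (TCCCGC on the other strand), and AGGTCA, the core motif of nuclear receptors (TGACCT on the other strand). Stra8 lies at chr6:34920698-34920997 (plus strand), Sycp3 at chr10:88459337-88459636 (plus strand) and Smc1b at chr15:85131908-85132207 (minus strand).
Stra8: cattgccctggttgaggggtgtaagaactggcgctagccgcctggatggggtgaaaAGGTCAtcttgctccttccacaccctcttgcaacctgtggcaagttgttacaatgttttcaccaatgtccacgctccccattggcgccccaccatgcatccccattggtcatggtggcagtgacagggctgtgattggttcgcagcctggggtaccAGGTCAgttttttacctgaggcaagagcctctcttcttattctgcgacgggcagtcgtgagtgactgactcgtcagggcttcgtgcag
Sycp3: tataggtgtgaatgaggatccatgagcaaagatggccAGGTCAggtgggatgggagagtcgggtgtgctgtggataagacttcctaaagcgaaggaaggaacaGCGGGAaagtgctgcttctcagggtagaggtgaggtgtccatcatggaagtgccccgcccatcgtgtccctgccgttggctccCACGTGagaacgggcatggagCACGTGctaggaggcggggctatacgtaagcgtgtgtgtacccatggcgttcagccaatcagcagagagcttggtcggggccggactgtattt
Smc1b: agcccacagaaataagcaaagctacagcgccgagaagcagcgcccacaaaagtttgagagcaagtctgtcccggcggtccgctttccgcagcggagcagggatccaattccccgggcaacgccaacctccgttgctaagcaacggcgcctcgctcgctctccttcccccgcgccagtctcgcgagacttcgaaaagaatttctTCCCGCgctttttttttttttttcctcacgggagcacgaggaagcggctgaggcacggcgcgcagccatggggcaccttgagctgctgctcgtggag
The Stra8 window holds AGGTCA in 2 places, the Sycp3 window holds CACGTG in 2 places with 1 GCGGGA and 1 AGGTCA, and the Smc1b window holds 1 E2F motif, read on the other strand. Of the 34 genes, 29 had a promoter window. CACGTG was present for 12 of the 29 (41.4%), beside 8.09% of 27025 genes with a window, and for 52.2% of the 23 genes with at least 10 CpG sites beside 11.8% of all such genes. GCGGGA was present for 37.9% beside 22.0%, and for 47.8% beside 42.4% at that CpG content, while AGGTCA was present for 13.8% beside 18.1%, and for 13.0% beside 11.4% at that CpG content. The windows held a median of 20 CpG sites, beside 7 over all promoters. Among the 7 genes that fell with LcPOU5F3, Hormad1 and Sycp3 had the E-box. The others with it were Brdt, Ddx4, Fkbp6, Mael, Mov10l1, Slc25a31, Stk31, Sycp1, Taf7l and Tdrd1. These are matches of letters in a window and say nothing on binding in these cells.

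Among the genes of germ-cell identity, Ifitm3 and Ifitm1, interferon-induced transmembrane proteins found on the surface of early germ cells, rose with LcPOU5F3, and Kit and Nanos3 fell. Ifitm3 was 2.94 and 2.73 with LcPOU5F1, 4.64 and 5.28 with LcPOU5F3, and 1.83 and 2.05 with mOct4, and no groups overlapped. It was 8.11-fold higher with LcPOU5F3 than with mOct4 (log2 3.02 ± 0.26, limma adjusted p = 0.00597), 3.13 on the log2 scale within the shared slide (adjusted p = 0.074). It was also 4.36-fold lower with LcPOU5F1 than with LcPOU5F3 (log2 -2.12 ± 0.26, adjusted p = 0.0109), while LcPOU5F1 over mOct4 gave 0.89 ± 0.26, which did not pass (adjusted p = 0.243). Ifitm1 was 4.94 and 4.64 with LcPOU5F1, 5.74 and 4.87 with LcPOU5F3, and 4.04 and 3.26 with mOct4. Its 3.14-fold rise with LcPOU5F3 (log2 1.65 ± 0.40, adjusted p = 0.0406) was lost with only the 4 arrays compared (adjusted p = 0.0781).

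Kit, the receptor tyrosine kinase for stem cell factor on migrating germ cells, was 2.87 and 3.57 in the LcPOU5F1 lines, 1.64 and 0.72 in the LcPOU5F3 lines and 2.68 and 2.88 in the mOct4 lines. Nanos3, an RNA-binding protein that keeps primordial germ cells alive, was 1.76 and 1.78 in the LcPOU5F1 lines, 0.69 and 0.20 in the LcPOU5F3 lines and 1.49 and 1.49 in the mOct4 lines. For both genes the LcPOU5F3 pair lay below every other line. Kit fell by 1.60 ± 0.39 on the log2 scale with LcPOU5F3 against mOct4, 3.03-fold (limma adjusted p = 0.0417), and was 4.12-fold higher with LcPOU5F1 than with LcPOU5F3 (2.04 ± 0.39, adjusted p = 0.0274). Nanos3 fell by 1.04 ± 0.20 with LcPOU5F3, 2.06-fold (adjusted p = 0.0251), and was 2.50-fold higher with LcPOU5F1 than with LcPOU5F3 (1.32 ± 0.20, adjusted p = 0.0177). Against mOct4 the LcPOU5F1 lines differed by 0.44 ± 0.39 for Kit and 0.28 ± 0.20 for Nanos3, and neither passed. With only the 4 arrays compared, the falls with LcPOU5F3 missed the threshold at adjusted p = 0.0618 for Kit and 0.0567 for Nanos3, and so did the differences between the coelacanth proteins at 0.0829 and 0.0693.

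Dazl, an RNA-binding protein that licenses germ cells for meiosis, was measured in both mOct4 lines (-2.55 and -2.88) and in none of the 4 coelacanth lines. Dazl thus entered the tests through the mOct4 lines alone and was bound to look lower elsewhere. The bounds were at least 1.01-fold lower with LcPOU5F1 (limma adjusted p = 0.237) and at least 1.38-fold lower with LcPOU5F3 (adjusted p = 0.0679), neither called. Ddx4, the germ-cell RNA helicase also known as mouse vasa homologue, was 1.31 and 1.76 with LcPOU5F1, 2.22 and 2.19 with LcPOU5F3 and 1.78 and 1.83 with mOct4. It passed no test, and the log2 difference of LcPOU5F1 over LcPOU5F3 was -0.67 ± 0.19 (adjusted p = 0.0686). Dnd1, an RNA-binding protein that protects germ-cell transcripts, was 1.53 and 1.39 with LcPOU5F1, 1.15 and 0.28 with LcPOU5F3 and 0.65 and 0.46 with mOct4, and passed no test. Prdm1, the repressor that sets germ-cell fate, was 1.08 and -0.17 with LcPOU5F1, -0.05 and -1.38 with LcPOU5F3 and -0.18 and -0.90 with mOct4. The LcPOU5F3 pair overlapped both other groups, the LcPOU5F1 pair lay just above the mOct4 pair, and Prdm1 passed no test.

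None of the 7 piRNA-pathway genes tested was called in any of the 3 comparisons. With LcPOU5F3 against mOct4, LcPOU5F1 against mOct4 and LcPOU5F1 against LcPOU5F3, 2, 1 and 1 had an unadjusted p under 0.05 in limma. Over all 14595 genes tested these counts were 5871, 2280 and 5758. Tdrd12, a Tudor-domain helicase of piRNA production, was -0.42 and -3.99 in the LcPOU5F1 lines, where clone 5 was not measured, below background in both LcPOU5F3 lines (-4.29 and -5.94) and -1.12 and -1.64 in the mOct4 lines. It was at least 3.5-fold lower with LcPOU5F3 than with mOct4, without passing (adjusted p = 0.0855), and its LcPOU5F1 clones lay on both sides of the mOct4 pair. Piwil2, the PIWI protein also called MILI, was -2.36 and -2.65 with LcPOU5F1, of which clone 4 was measured, -2.79 and -4.22 with LcPOU5F3, neither measured, and -2.11 and -1.89 with mOct4. Its bound with LcPOU5F3 was at least 2.27-fold lower (adjusted p = 0.0779). Tdrd12 and Piwil2 entered the tests through the mOct4 lines alone and were bound to look lower with LcPOU5F3.

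Tex19.1, which restrains retrotransposons in germ cells and early embryos, was 5.15 and 4.00 with LcPOU5F1, 4.25 and 1.46 with LcPOU5F3 and 4.14 and 4.31 with mOct4. LcPOU5F3 clone 2 alone lay far below the rest. Mael, a factor of transposon silencing, was 2.53 and 0.99 with LcPOU5F1, 2.67 and 2.00 with LcPOU5F3 and 2.57 and 2.52 with mOct4. Stk31, a Tudor-domain protein with a kinase fold, was 1.04 and 0.65 with LcPOU5F1, 0.16 and 0.19 with LcPOU5F3 and 0.02 and 0.13 with mOct4; the LcPOU5F1 pair lay above the other lines, at a log2 difference of 0.77 ± 0.18 over mOct4 that did not pass (adjusted p = 0.198). Mov10l1, the helicase that feeds precursors into the pathway, ranged from -2.15, not measured in LcPOU5F1 clone 5, to -0.65 over the 6 arrays, and the probe of Fkbp6, a co-chaperone of PIWI proteins, was well above background only in the mOct4 lines (-3.01 and -2.53).

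Of the Rhox homeobox genes on the X chromosome, Rhox6 and Rhox9, which are also used in the placenta, were highest in LcPOU5F3 clone 1. Rhox6 was 2.30 and 1.18 with LcPOU5F1, 4.83 and 2.26 with LcPOU5F3 and 1.44 and 1.01 with mOct4. Rhox9 was 2.34 and 0.44, 4.88 and 2.27, and 1.62 and 1.07 in the same lines. The log2 fold changes of LcPOU5F3 over mOct4, 2.32 ± 0.89 for Rhox6 (limma adjusted p = 0.118) and 2.23 ± 1.03 for Rhox9 (adjusted p = 0.172), did not pass. These paralogs are close copies and their probes differed by only 0.01 to 0.73 over the 6 arrays, so they may report the same RNA and are uncertain as separate genes. Rhox5, the founding member, was 6.57 and 8.13 with LcPOU5F1, 6.93 and 5.97 with LcPOU5F3 and 7.01 and 7.87 with mOct4, and passed no test.

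Among the 6 genes of later sperm formation, Tex14, which keeps the bridges between dividing germ cells open, was the 1 called with LcPOU5F3. It was -0.34 and -0.19 in the LcPOU5F1 lines, -1.48 and -2.49 in the LcPOU5F3 lines and 0.62 and 0.26 in the mOct4 lines, with no overlap between any groups. Tex14 fell by 2.43 ± 0.36 on the log2 scale with LcPOU5F3 against mOct4, 5.38-fold (limma adjusted p = 0.0147, and 0.103 within the shared slide), and was 3.29-fold higher with LcPOU5F1 than with LcPOU5F3 (1.72 ± 0.36, adjusted p = 0.0336, and 0.0898 with only the 4 arrays compared). With LcPOU5F1 against mOct4 its log2 fold change was -0.71 ± 0.36 and did not pass.

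Tex101, a surface protein of male germ cells, had another pattern: it was below background in both LcPOU5F1 lines (-4.90 and -4.60) and measured in the LcPOU5F3 lines (-2.17 and -2.93) and the mOct4 lines (-2.34 and -1.76). It was at least 1.14-fold lower with LcPOU5F1 than with LcPOU5F3, and the fitted difference was 4.6-fold (limma adjusted p = 0.0177). That call was lost at a common floor, which also raised the measured signal of LcPOU5F3 clone 2, and the log2 difference was then -0.13. Tex101 was at least 1.61-fold lower with LcPOU5F1 than with mOct4. The fitted 6.5-fold fall did not pass in the main fit over all 6 arrays (adjusted p = 0.106) and passed with only the 4 arrays compared (adjusted p = 0.028). Over all 6 arrays it passed with quantile normalization (adjusted p = 0.00721), with a variance weight per group (0.0266) and with median centring, and in no other setting. Tuba3a, an alpha-tubulin of the testis, was 2.34 and 0.93 with LcPOU5F1, 1.78 and -0.83 with LcPOU5F3 and 3.03 and 2.62 with mOct4, and its log2 fold change of -2.35 ± 0.94 with LcPOU5F3 did not pass (adjusted p = 0.13). Brdt, a testis bromodomain protein, was -1.33 and -1.30 with LcPOU5F1, -1.13 and -1.18 with LcPOU5F3 and -0.78 and -0.29 with mOct4, below the mOct4 pair in all 4 coelacanth lines and not called. Taf7l, a testis variant of a general transcription factor, stayed between 1.61 and 2.15 on all arrays, and Slc25a31, the germ-cell ADP/ATP carrier, was measured in LcPOU5F3 clone 2 (-2.76) and both mOct4 lines (-2.70 and -2.44).

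**Figure D2:**
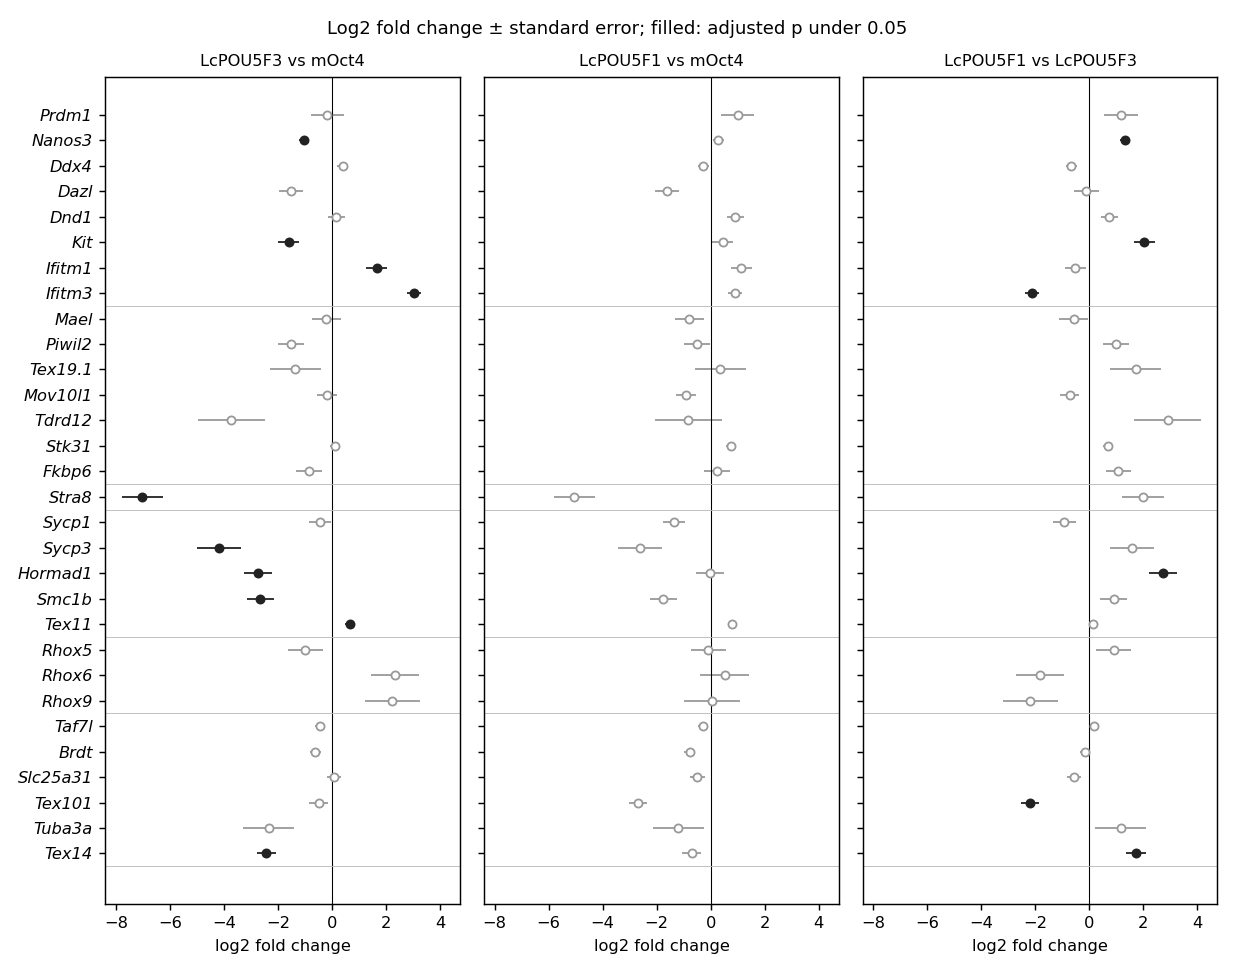
The plot of fold changes gives each gene's log2 fold change ± SE from limma (horizontal axis) in the 3 comparisons, with lines between role groups; filled points have an adjusted p under 0.05. With LcPOU5F3 over mOct4, 3 filled points lie right of 0 and 7 left of it, with LcPOU5F1 over mOct4 none is filled, and with LcPOU5F1 over LcPOU5F3 4 lie right and 2 left; fitted values of genes below background are drawn where only a bound holds.

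Sister clones differed in these genes, by counts that were higher in the coelacanth lines. Counting genes measured in both clones of a group, 9 of 20 differed by at least 1 on the log2 scale between LcPOU5F1 clones 4 and 5 (45.0%, beside 2.96% of all such genes), 7 of 21 between LcPOU5F3 clones 1 and 2 (33.3%, beside 10.2%) and 0 of 30 between the mOct4 clones (beside 0.765%). The gaps that involve measured genes only were widest for Tex19.1 (2.79), Tuba3a (2.61), Rhox9 (2.61) and Rhox6 (2.57), all between the LcPOU5F3 clones. In the LcPOU5F1 pair, Rhox9 differed by 1.90, Sycp3 by 1.70, Rhox5 by 1.56 and Mael by 1.54. The direction differed by gene: Rhox5 was higher in LcPOU5F1 clone 5, and Sycp3, Mael and Rhox9 in clone 4.

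**Figure D3:**
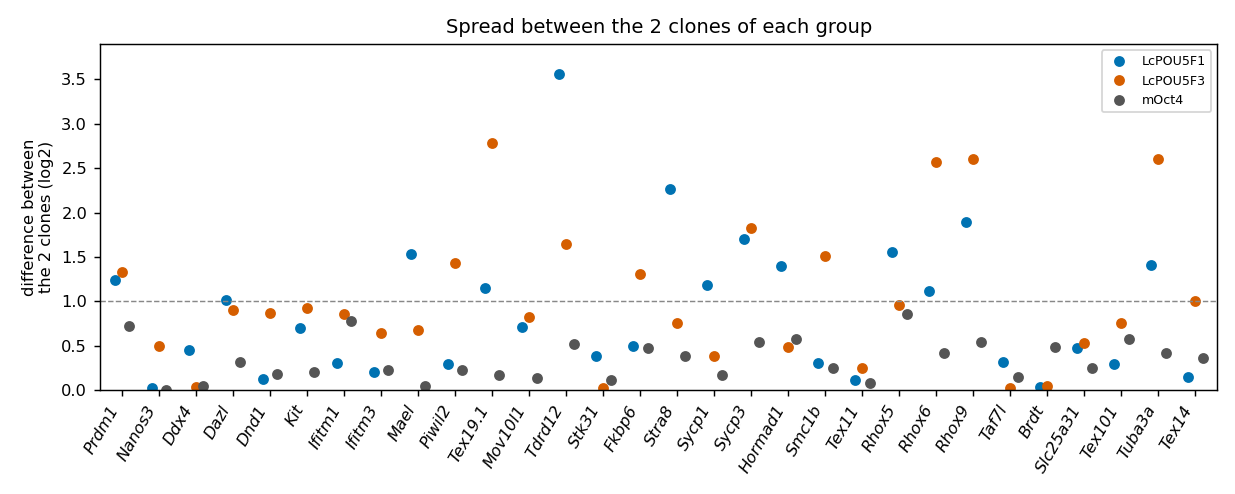
The plot of clone differences gives, for each tested gene (horizontal axis), the absolute log2 difference between the 2 clones of LcPOU5F1, LcPOU5F3 and mOct4, unmeasured signals included; the dashed line marks 1. All mOct4 points lie below the line, with the highest at 0.86 for Rhox5, while 13 LcPOU5F1 and 11 LcPOU5F3 points lie above it.

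The lists in this and the next paragraphs were chosen with earlier results of these data known. Over all genes, 11.8% were called higher and 11.7% lower with LcPOU5F3 against mOct4. With LcPOU5F1 against LcPOU5F3 the shares were 10.6% and 9.99%. Of 22 other meiosis genes tested, 5 fell and 0 rose with LcPOU5F3 against mOct4. Mei1 fell by 1.24, Dmc1, the meiotic strand-exchange recombinase, by 1.40 and Mlh3, a crossover factor, by 0.85 on the log2 scale. Mei4 and Majin, which were not measured in the LcPOU5F3 lines, fell at least 1.62-fold and 1.42-fold. Mei4 entered the tests through the mOct4 lines alone and was bound to look lower. Majin had the highest p of the 5 and is named after its value was seen. With LcPOU5F1 against LcPOU5F3, 3 of the 22 were called higher (Mei4, Mlh3 and Ccnb1ip1) and 0 lower, of which Mei4 was below background in all 4 lines and has no fold. Of 11 other piRNA genes tested, 2 rose with LcPOU5F3 against mOct4, Tdrd7 (log2 2.38) and Tex15 (1.87), and 1 fell, Morc1 (-2.77), and with LcPOU5F1 against LcPOU5F3 Morc1 and Pld6 were higher and Tdrd7 lower.

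Of 13 other germ-cell genes, Dppa3, a maternal-effect gene of germ cells, rose with LcPOU5F3 against mOct4 (-0.65 and -0.22 against -3.15 and -3.59, of which 1 mOct4 array was measured). Etv5, Prdm14 and Sohlh1 fell, the last to below background in both LcPOU5F3 lines and by at least 1.05-fold. Prdm14, which works beside PRDM1 in specification, was 3.16 and 3.73 with LcPOU5F1, 0.95 and -0.85 with LcPOU5F3 and 2.93 and 3.05 with mOct4, and fell by 2.94 ± 0.60 with LcPOU5F3 (limma adjusted p = 0.0282). Between the coelacanth proteins Etv5 and Prdm14 were higher and Dppa3 lower with LcPOU5F1.

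Of 23 genes whose products silence germline promoters, 5 fell and 1 rose with LcPOU5F3 against mOct4. Dnmt3l, the cofactor of de novo DNA methylation, was 1.01 and -0.70 with LcPOU5F1, 1.04 and -0.47 with LcPOU5F3 and 4.61 and 4.61 with mOct4, and fell by 4.32 ± 0.72 with LcPOU5F3, 20-fold (limma adjusted p = 0.018). The others that fell were Trim28 (log2 fold change -0.94), Wdr5 (-1.0), Uhrf1 (-0.73) and L3mbtl2 (-0.77), and Yaf2 rose (1.42), with L3mbtl2 and Yaf2 named after their values were seen. With LcPOU5F1 against LcPOU5F3, 4 were higher (Trim28, Uhrf1, Wdr5 and Dnmt1) and 2 lower (Dnmt3b and Dnmt3a), of which Dnmt3b and Dnmt3a are named after their values were seen. Of 7 retinoic acid genes, set beside Stra8, Dhrs3 rose (3.08) and Crabp1 fell (-2.89) with LcPOU5F3 against mOct4, and Cyp26a1 was at least 2.27-fold lower with LcPOU5F1 than with LcPOU5F3. With LcPOU5F1 against mOct4, limma called 0 genes in each of these 5 lists. An unadjusted p under 0.05 was found for 2, 4, 4, 3 and 3 of the other piRNA, other meiosis, other germ-cell, silencing and retinoic acid genes. Over all 14595 genes tested, 2280 had one.

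Markers of other cell types moved with these groups. The mean level of 12 naive stem cell markers was 4.75 and 4.93 in the LcPOU5F1 lines, 3.49 and 2.50 in the LcPOU5F3 lines and 4.94 and 5.03 in the mOct4 lines, and 9 of the 12 fell with LcPOU5F3 against mOct4. The 12 include Pou5f1, the gene of mouse OCT4. Its fitted log2 fold changes against mOct4, -2.95 with LcPOU5F3 and -2.79 with LcPOU5F1, were not called but lower these means. The mean of 12 trophoblast markers was -1.0 and -1.86 with LcPOU5F1, 2.96 and 2.87 with LcPOU5F3 and -0.24 and -0.38 with mOct4, and 10 rose and 1 fell with LcPOU5F3. Of 5 primitive endoderm markers tested, 2 rose with LcPOU5F3, as did 2 of 6 fibroblast markers, of which 1 fell. Of 12 gonadal somatic markers, Sox9, Fshr, Lhcgr, Cyp11a1 and Hsd3b1 were measured on no array, and of the 7 tested Wt1 alone was called, at least 4.09-fold higher with LcPOU5F3. The part of these shifts in the results on germline genes was not tested. The Pou5f1 probe was well above background only in the mOct4 lines (-1.75 and -1.47). The sources do not say which part of the transcript it reads, and it is no check of the labels.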

How the data were processed

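RNA of 6 lines was labelled with Cy3 and hybridised to 1-colour Agilent arrays of 59305 non-control spots for 55681 probes. Per the file headers, the authors extracted a linear, background-subtracted intensity with Agilent Feature Extraction 11.0.1.1, protocol GE1_1100_Jul11, on a design that names mm9. The number of arrays limits the precision. Spots flagged as outliers were left out, log2 intensity was centred on each array's 75th percentile, and spots of 1 probe were averaged. Probes were named by RefSeq transcript: 27656 had 1 symbol and 28025 none. A gene was tested if, in 1 group or more, a probe had the well-above-background flag on both arrays, by its kept probe with the highest mean. limma 3.58.1 in R 4.3.3 fitted 3 group means with 3 residual degrees of freedom, adjusted by Benjamini-Hochberg over 14595 genes, and was tested on simulated data. A gene not measured in a group has a bound against the lowest signal among well-measured probes. All members were named, and of the other pathway lists up to 4 genes with the smallest p. The members and lists were chosen with earlier results of these data known. Alternatives were 21 settings of scaling, background (normexp on the median spot signal, offset 50), filter, probe, spread, slide, replicate block and arrays left out. Columns of other samples numbered 0.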

Additional observations from a re-analysis of the deposited data

How the results depend on the processing

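With LcPOU5F3 against mOct4, the 3 higher genes became 1 with no filter and 1 with a variance weight per group. They became 1 with only the 4 arrays compared and 0 with slide as a block. The 7 lower genes became 11 with median centring, 2 with no filter and 0 with slide as a block. Among the 19 genes well above background on all 6 arrays, 4 were lower. With 1 array left out, both counts moved up or down depending on the array, as did those over all genes. Both fell to 0 in the fit with a replicate block, which called 0 of all genes by limma, with 4398 at an unadjusted p under 0.05; the clone numbers do not pair the lines (correlation of deviations -0.0966), which share only a number. With LcPOU5F1 against mOct4, the 0 higher genes became 1 with a variance weight per group, and the 0 lower genes became 1 with normexp, 1 with quantile normalization, 7 with median centring, 3 with a variance weight, 3 with only the 4 arrays compared, and 0 to 3 when each array was left out. With LcPOU5F1 against LcPOU5F3, the 4 higher genes became 0 with no filter, 0 with only the 4 arrays compared, 0 with slide as a block, and 0 to 10 when each array was left out; the 2 lower became 5 with median centring, 1 with a common floor, 1 with only the 4 arrays compared, 1 with slide as a block, and 0 to 3 when each array was left out. Where fewer arrays or more genes entered the fit, that is the alternative's own construction. With median centring, the limma p-values of the members whose call changed followed the size of the fold change alone. For Tdrd12 with LcPOU5F3 against mOct4 the adjusted p was 4.34e-14 there, beside 0.0855 in the main fit, at log2 fold changes of -3.70 and -3.74. Counts with median centring, here and in the next paragraph, therefore take no account of a gene's own clone spread. For the other settings the cause was not tested.

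Over all genes, the main counts of 1724 higher and 1712 lower with LcPOU5F3 against mOct4 became 985 and 559 with no filter, 1285 and 917 with only the 4 arrays, 39 and 7 within the shared slide, which is also without mOct4 clone 2, and 31 and 5 without mOct4 clone 1. They became 1313 and 1139 with median centring and 1506 and 1335 with a variance weight. Counts of LcPOU5F1 against mOct4, 2 higher and 3 lower, became 47 and 702 with median centring and 7 and 98 with quantile normalization. They became 2 and 11 with normexp, 152 and 352 with a variance weight and 175 and 354 with only the 4 arrays. Counts of LcPOU5F1 against LcPOU5F3, 1545 and 1458, became 501 and 1852 with median centring, 1176 and 1772 with quantile normalization, 967 and 1651 with the percentile over well-measured probes, 661 and 984 with a variance weight, 268 and 697 with no filter, and 96 and 400 with only the 4 arrays. At a common floor the counts of LcPOU5F1 against LcPOU5F3 were 2081 and 1440. Median centring moved the median of all genes to -0.27 for LcPOU5F1 against mOct4 and to -0.20 for LcPOU5F1 against LcPOU5F3, beside 0.10 and 0.21. No called gene reversed. Ifitm3, Stra8 and Tex14 kept their call with LcPOU5F3 against mOct4 in 13 of 13, 12 of 12 and 13 of 13 settings that kept all arrays of both groups and had no block. Among these settings, a 2-fold minimum reuses the main fit, and the deposited values equal those of the scanner within 0.6%. Neither could readily lose these calls. None of these calls held when either mOct4 clone was left out.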
